A study of Mus musculus with 6 samples.

Results

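AP-1 is a dimer of basic leucine zipper proteins of the Jun, Fos and ATF families, and its genes are immediate early genes, which cells transcribe within minutes of a stimulus without making new protein first. A set of 10 genes of this response were read here in macrophages of a mouse melanoma. They were found by symbol, each held by 1 gene of the 23424 in the tables, and all 10 were among the 14776 protein-coding genes tested. *Fos*, *Fosb* and *Fosl2* encode the Fos proteins, which bind DNA as partners of Jun proteins. *Jun*, *Junb* and *Jund* encode the Jun partners. *Atf3* encodes a stress-induced factor that can pair with Jun proteins, *Egr1* and *Egr2* encode zinc finger factors, and *Ier2* encodes a short-lived nuclear protein. MAP kinases, acting through serum response factor, CREB and the Jun proteins themselves, are the classic inputs to these genes, and in macrophages inflammatory signals, growth factors and adhesion all start them. They are also known to be induced while tissue is dissociated with warm enzymes, as was done here before the sort.

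The series holds 6 bulk RNA-seq libraries of tumor-associated macrophages (TAMs), 3 of F4/80high and 3 of F4/80low cells. F4/80 is a macrophage surface protein encoded by *Adgre1*. Both subsets came from YUMM1.7 tumors, grown from a mouse melanoma line by injection into the skin of female wild-type C57Bl/6J mice that were 8 weeks old, and taken on day 21. The mice received no treatment and no transgene, and both subsets were sorted from enzyme-digested, pooled tumors as live CD45+ CD11b+ cells without lineage markers. The libraries come from 3 independent experiments, and those with the same replicate number were read as a pair. Replicates 1 and 2 are batch 1 (4 libraries) and replicate 3 is batch 2 (2 libraries). No library of undigested tissue was used here, so the levels below are those of cells after digestion and sorting.

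Total counts ran from 30292061 to 43604373 in batch 1 and were 16045281 and 16204810 in batch 2. The features *Lars2*, *Gm23935* and *Gm15564* took 0.378% to 0.609% of a batch 1 library, but 17.1% and 16.1% of the F4/80high and F4/80low libraries of batch 2. All 9 macrophage markers were detected, with a summed level of 6640 to 23500 CPM (counts scaled to the normalized library size) in F4/80high and 7840 to 10700 CPM in F4/80low TAMs. The means of 6 of the 9 were higher in F4/80high. Their sum was lower there in pair 1 (8610 against 9780 CPM) and pair 3 (6640 against 7840 CPM). In pair 2 it was higher (23500 against 10700 CPM), with *Lyz2* alone at 16100 against 6480 CPM. *Adgre1* itself was higher in F4/80high TAMs in 3 of 3 pairs, with a log2 fold change of 0.67 (SE 0.30) that did not pass the test (edgeR adjusted p = 0.673). Markers of other cells also went with the sort. The means of 0 of 8 neutrophil, 0 of 7 eosinophil, 0 of 8 mast cell and basophil, 0 of 6 dendritic cell and 0 of 6 fibroblast markers were higher in F4/80high TAMs, against 7 of 7 T and NK cell markers. The summed levels of the former lists were lower in F4/80high in 3 of 3 pairs, but that of T and NK cell markers was higher in pairs 1 and 3 only, and lower in pair 2 (235 against 338 CPM). Summed neutrophil markers came to 661 to 1870 CPM in F4/80high and 1380 to 4030 CPM in F4/80low TAMs, eosinophil markers to 89.8 to 177 and 251 to 603 CPM, mast cell and basophil markers to 9.51 to 108 and 44.7 to 423 CPM, dendritic cell markers to 73.4 to 262 and 132 to 474 CPM, fibroblast markers to 438 to 1530 and 1050 to 1890 CPM, and T and NK cell markers to 135 to 739 and 60.5 to 338 CPM. In F4/80low replicate 3, *Kit* alone was at 383 of the 423 CPM of mast cell and basophil markers. B cell markers (4.43 to 107 and 5.35 to 94.1 CPM), endothelial markers (29.5 to 80.5 and 35.6 to 86.3 CPM) and the 4 melanoma markers with a row here (19.5 to 168 and 13.1 to 106 CPM) overlapped. The melanoma sum was mostly *Mitf*, at 16.5, 21.5 and 167 CPM in F4/80high and 13.3, 11.4 and 104 CPM in F4/80low. *Pmel*, *Sox10* and *Mlana* reached at most 1.81, 1.26 and 0.0251 CPM. The keratinocyte gene *Dsp* was at 0 counts in all 6 libraries. The part of these cells in the results that follow was not tested.

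The upstream sequences of *Fos*, *Jun* and *Junb* are shown because these are the Fos and Jun family genes with the highest levels per length, and because their proportions within a library are compared below. Each run is the 250 bases before the RefSeq transcription start on GRCm38.p6, written 5′ to 3′ on the strand of the gene, and ends at the base before the start. Capitals mark TGACG, the core of the cAMP response element to which CREB and ATF factors bind, in *Fos* and *Junb*, and TGACATCA, a variant of the full element, in *Jun*. The runs lie at chr12:85473640-85473889 (plus strand), chr8:84978749-84978998 (minus) and chr4:95052223-95052472 (minus).
Fos: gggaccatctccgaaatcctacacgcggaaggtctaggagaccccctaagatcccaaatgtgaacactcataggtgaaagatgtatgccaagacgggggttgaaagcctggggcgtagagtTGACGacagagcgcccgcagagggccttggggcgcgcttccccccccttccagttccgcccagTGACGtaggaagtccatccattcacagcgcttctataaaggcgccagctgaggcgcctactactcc
Junb: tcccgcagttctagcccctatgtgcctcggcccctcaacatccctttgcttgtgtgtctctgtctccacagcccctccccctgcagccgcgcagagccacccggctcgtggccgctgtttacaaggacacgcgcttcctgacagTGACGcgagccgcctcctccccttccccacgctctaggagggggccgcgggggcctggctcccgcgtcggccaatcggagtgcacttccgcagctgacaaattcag
Jun: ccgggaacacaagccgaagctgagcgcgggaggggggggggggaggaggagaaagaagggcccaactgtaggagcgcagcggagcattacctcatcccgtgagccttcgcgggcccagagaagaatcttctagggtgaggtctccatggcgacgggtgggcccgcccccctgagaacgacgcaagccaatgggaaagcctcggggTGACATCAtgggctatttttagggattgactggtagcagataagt
The TGACG runs begin 129 and 66 bases upstream of the start in *Fos* and 106 bases upstream in *Junb*, and TGACATCA begins 45 bases upstream in *Jun*. Of the 10 genes, 7 had 1 entry in the RefSeq promoter table, and TGACG was found in 4 of them (*Fos*, *Fosb*, *Junb* and *Atf3*), read on both strands, against 17.9% of 32536 promoters of the same length. TGACATCA was found in 2.84% of all promoters. The full element TGACGTCA (1.56% of promoters), which contains TGACG, the AP-1 site TGANTCA (6.73%) and the CArG box of serum response factor (1.48%) had no match in these 7 windows, which says only that these letters are not in the 250 bases. The RefSeq windows of *Fosl2* (chr5:32136222-32136471) and *Atf3* (chr1:191183334-191183583) lie inside the gene spans given below. That of *Jund* (chr8:70697489-70697738) ends well upstream of its span.

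In the GENCODE M21 annotation of GRCm38, *Fos* lies at chr12:85473890-85477273 on the plus strand, *Fosb* at chr7:19302696-19310051 on the minus strand and *Fosl2* at chr5:32135801-32157842 on the plus strand. *Jun* lies at chr4:95049034-95052222 (minus), *Junb* at chr8:84974484-84978718 (minus), *Jund* at chr8:70698949-70700616 (plus) and *Ier2* at chr8:84661331-84662852 (minus). *Egr1* lies at chr18:34859823-34864984 (plus), *Egr2* at chr10:67535475-67542188 (plus) and *Atf3* at chr1:191170296-191218039 (minus). Values are for whole genes. The longest transcripts of *Jun*, *Junb*, *Jund* and *Ier2* have 1 exon and no intron. On the opposite strand, *Junb* overlaps *Prdx2* (366 to 7461 counts) and *Jun* overlaps *Junos* (154 to 957 counts). *Jund* overlaps *Gm11175* and *Atf3* overlaps *Gm24748*. Whether the counting used strand is not given in the sources used here, so reads of these genes and their partners may not be told apart. *Jund* was counted over a length of 2878 bases, longer than its span in M21, and its level per length rests on that length.

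The genes were abundant, and the Fos and Jun families were unequal in level. On the per-length scale (TPM, the counts divided by gene length and then scaled to a common total), the mean over 6 libraries was 5136 ± 4135 for *Junb* and 5084 ± 721 for *Fos* (SD, n = 6). *Fos* ranked 10 to 18 of 14776 genes in every library, while *Junb* ranked 5 to 280. They were followed by *Ier2* at 1121 ± 892.9 TPM, *Jun* at 1007 ± 610.4 TPM and *Atf3* at 974 ± 419.5 TPM. *Jund* measured 557 ± 305.1, *Egr1* 531.5 ± 322, *Fosb* 343.6 ± 75.37, *Fosl2* 136.6 ± 71.23 and *Egr2* 49.96 ± 13.95 TPM. The only neighbours in this order whose ranges over the libraries did not overlap were *Fos* (3889 to 5989 TPM) and *Ier2* (91.89 to 2027 TPM). The other neighbours were within each other's spread. Even *Egr2*, the lowest, stood above 74.2% of the genes tested in the library where it ranked last. Together the 10 genes took 0.464% to 1.89% of the counts of a library.

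Of the summed TPM of *Fos*, *Fosb* and *Fosl2*, *Fos* made up 90.1% to 94.7% in F4/80high and 86.9% to 93.8% in F4/80low TAMs. *Fosl1*, a further Fos family gene, is not in this sum. Its mean was 32.62 TPM in F4/80high and 72.26 TPM in F4/80low TAMs. *Fosb* made up 4.51% to 7.12% and 4.36% to 7.30%, which overlap. The share of *Fosl2*, whose protein lacks the strong activation region of FOS, was 1.75%, 0.761% and 2.82% in the F4/80high libraries of replicates 1, 2 and 3, and 2.72%, 1.86% and 5.78% in their F4/80low partners. It was the smaller in F4/80high in each pair. Within the Jun family, *Junb* made up 75.5%, 73.3% and 44.7% in the F4/80high libraries and 80%, 82% and 51.1% in their partners, in the same order. *Jun* made up 15.8%, 18.8% and 33.4% in the F4/80high libraries and 12.9%, 11.7% and 24.3% in their partners. The share of *Junb* was thus lower, and that of *Jun* higher, in the F4/80high library of every pair. *Egr1* made up 74.2% to 94.5% of the sum of *Egr1* and *Egr2* in F4/80high and 74% to 95.5% in F4/80low TAMs.

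The comparison of the subsets asks whether this program differs between F4/80high and F4/80low TAMs. A gene was called at an adjusted p below 0.05 with a log2 fold change beyond 1 in either direction, and edgeR called 0 of the 10 genes and 0% of the 14776 genes tested. *Fos* and *Fosb* were higher in F4/80high TAMs in 3 of 3 pairs, as were 16% of all genes, and *Fosl2*, *Junb*, *Jund* and *Ier2* were lower in 3 of 3 pairs, as were 15.7%. The fitted log2 fold changes of the 10 genes ran from -0.73 to 0.25, and the ranges of the subsets overlapped for all 10, where 2.27% of all genes had every F4/80high library above and 2.88% every one below. In bulk RNA, fewer cells expressing a gene and less of its RNA per cell cannot be told apart.

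*Fos* measured 3770, 4499 and 4792 CPM in the F4/80high libraries, against 3385, 3631 and 4001 CPM in their F4/80low partners (replicates 1, 2 and 3 in this order here and for the genes that follow). The F4/80high library was the higher in each pair, by 0.16 to 0.31 on the log2 scale, and the ranges of the subsets overlapped. The fitted log2 difference was 0.25 (SE 0.21, edgeR quasi-likelihood adjusted p = 0.794). *Fosb*, an inducible partner of Jun like FOS, measured 467.9, 341.5 and 604 CPM in the F4/80high libraries and 417.7, 269.1 and 536.1 CPM in their partners. Its order over the pairs was that of *Fos*, with a log2 fold change of 0.22 (SE 0.25, adjusted p = 0.87). *Fosl2* measured 297.2, 148.7 and 617.5 CPM in the F4/80high libraries and 420.2, 295.8 and 1095 CPM in their partners. All 3 F4/80high libraries were below their partners, by pair differences of -0.50, -0.99 and -0.83, while the ranges of the subsets overlapped and both replicate 3 libraries were high. The fit gave -0.73 (SE 0.30, edgeR adjusted p = 0.637), and with the replicate as a block -0.77 (SE 0.19, adjusted p = 0.146).

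*Junb*, whose protein can oppose JUN at some targets, measured 4212, 2250 and 369.1 CPM in the F4/80high libraries and 5591, 4240 and 442 CPM in their F4/80low partners. Each F4/80high library was below its partner, the more so in replicate 2, and the replicate 3 libraries of both subsets were far below the rest. The fitted difference was -0.49 on the log2 scale (SE 0.28, edgeR adjusted p = 0.703). *Jun* measured 1532, 1002 and 477.5 CPM in the F4/80high libraries and 1562, 1045 and 363.8 CPM in their partners. It differed little in pairs 1 and 2 and was higher in F4/80high in pair 3 (log2 fold change 0.10, SE 0.27, adjusted p = 0.951). *Jund*, the Jun gene that resting cells also transcribe, measured 753, 379.9 and 282.2 CPM in the F4/80high libraries and 775.7, 512.9 and 334.1 CPM in their partners. Its log2 fold change was -0.21 (SE 0.30, adjusted p = 0.904), and -0.01 without F4/80high replicate 2.

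*Ier2* measured 715.7, 404.4 and 56.69 CPM in the F4/80high libraries and 909.8, 920.7 and 86.2 CPM in their F4/80low partners. It was lower in F4/80high in all 3 pairs, with a log2 fold change of -0.67 (SE 0.26, edgeR adjusted p = 0.615). *Egr1*, a sensor of MAP kinase signaling, measured 864.6, 579.1 and 393.4 CPM in the F4/80high libraries and 1254, 1073 and 302.2 CPM in their partners. It was lower in F4/80high in batch 1, with pair differences of -0.54 and -0.89, and higher in batch 2, with 0.38, and the fit gave -0.34 (SE 0.29, adjusted p = 0.797). *Egr2* measured 37.98, 47.69 and 103.5 CPM in the F4/80high libraries and 50.31, 38.14 and 80.5 CPM in their partners. *Atf3* measured 853, 657.9 and 571.5 CPM in the F4/80high libraries and 986.2, 523.2 and 459.3 CPM in their partners. Both were lower in F4/80high in pair 1 and higher in pairs 2 and 3, and their log2 fold changes were 0.09 (SE 0.24) and 0.11 (SE 0.28), each with an adjusted p of 0.952.

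**Figure D1:**
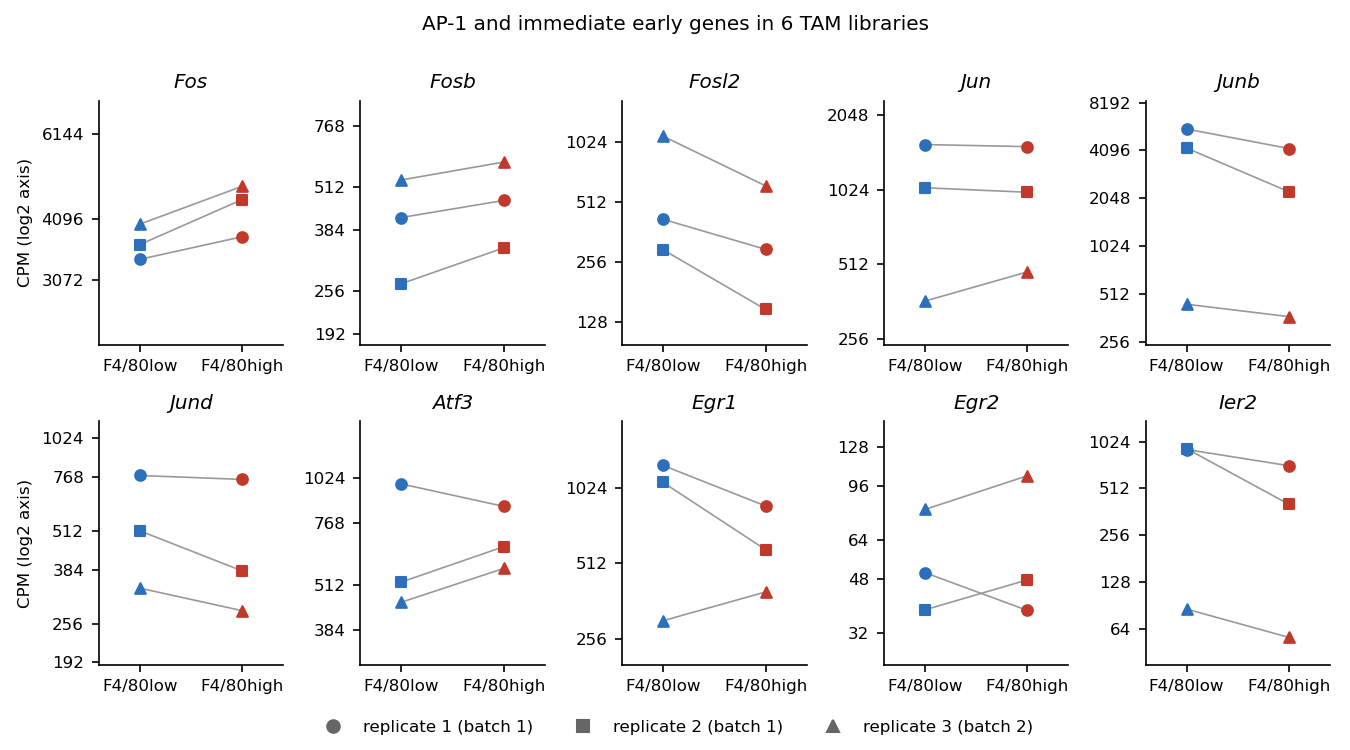
Level of each gene in CPM (log2 axis) in F4/80low (blue) and F4/80high (red) TAMs, with a line joining the libraries of 1 replicate and 1 marker shape per replicate. *Fos*, *Fosb*, *Fosl2*, *Junb*, *Jund* and *Ier2* slope the same way in 3 of 3 pairs, and the replicate 3 libraries of *Junb* (369.1 and 442 CPM) and *Ier2* (56.69 and 86.2 CPM) lie far below those of replicates 1 and 2.

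At an unadjusted p below 0.05, edgeR found 2 of the 10, *Fosl2* and *Ier2*, both lower in F4/80high, against 4.3% of all genes lower and 3.26% higher. DESeq2 called 0 of the 10 genes, where it called 1.02% of all genes, and found the same 2 genes at an unadjusted p below 0.05, against 5.31% of all genes lower. The replicate block called 0 of the 10 and 0.514% of all genes. Its unadjusted edgeR p was below 0.05 for *Fosl2* (0.00275), *Ier2* (0.00866) and *Junb* (0.0164), all lower in F4/80high. The share of all genes at that limit is not given here for the block. DESeq2 with the block gave *Fosl2* an adjusted p of 0.0148, with a fold change that stayed within the limit.

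**Figure D2:**
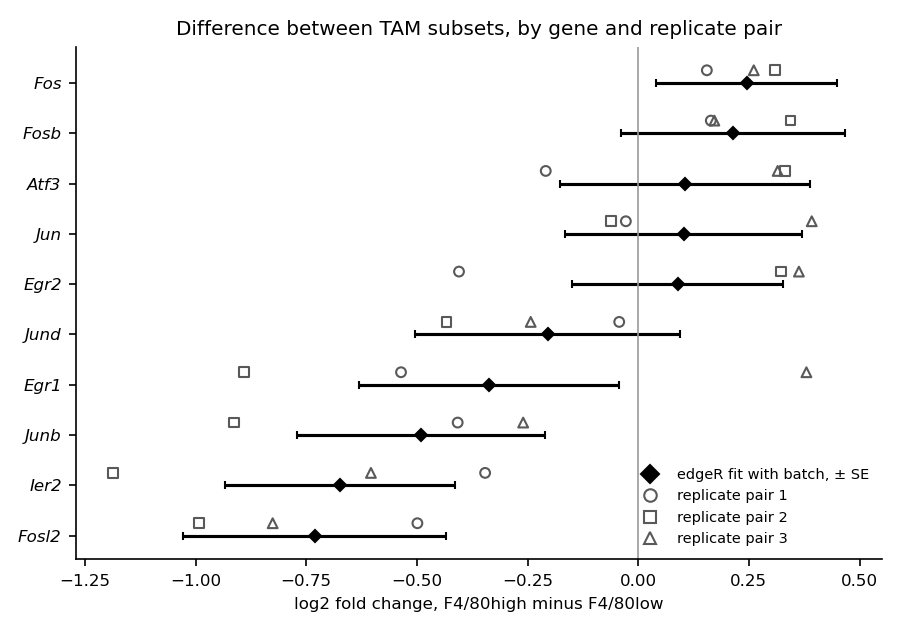
Log2 fold change of each gene, F4/80high minus F4/80low, from the edgeR fit with batch (filled diamonds, bars of 1 SE) and in each replicate pair (open symbols). *Fosl2* at -0.73 and *Ier2* at -0.67 are the farthest below 0, *Fos* at 0.25 is the farthest above, and *Egr1*, *Egr2*, *Atf3* and *Jun* have pairs on both sides of 0.

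Ratios between genes within a library do not depend on how libraries are scaled to each other. Of 9 ratios computed, chosen after the values had been seen and given with no test, 5 were higher in F4/80high in 3 of 3 pairs. For *Fos* to *Fosl2*, *Fosb* to *Fosl2*, *Fos* to *Junb* and *Fos* to *Ier2* this direction was fixed by the differences given above. The first gene was higher and the second lower in every pair, so these ratios restate those differences and add no further support. *Fos* to *Fosl2* was 52.2, 125 and 31.9 in the F4/80high libraries of replicates 1, 2 and 3, and 33.2, 50.5 and 15 in their partners, a mean log2 difference of 1.01 ± 0.33 (SD, n = 3 pairs). *Fosb* to *Fosl2* was 4.06, 5.93 and 2.52 against 2.57, 2.35 and 1.26, a difference of 1.00 ± 0.34. *Fos* and *Fosb* thus stood higher relative to *Fosl2* in each F4/80high library than in its partner. *Fos* to *Junb* was 0.7, 1.56 and 10.2 against 0.474, 0.67 and 7.08, a log2 difference of 0.77 ± 0.39. *Jun* to *Junb* was 0.21, 0.257 and 0.746 against 0.161, 0.142 and 0.475, a difference of 0.63 ± 0.24. *Fos* to *Ier2* was 3.41, 7.2 and 54.7 against 2.41, 2.55 and 30, a difference of 0.95 ± 0.50. The same ratios also spread over the replicates, most of all those to *Junb* and *Ier2*, which were highest in replicate 3 of both subsets. *Fos* to *Jun* was 3.34, 6.09 and 13.6 against 2.94, 4.71 and 14.9 and went both ways, and so did *Fos* to *Egr1*, *Atf3* to *Egr1* and *Egr1* to *Egr2*.

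**Figure D3:**
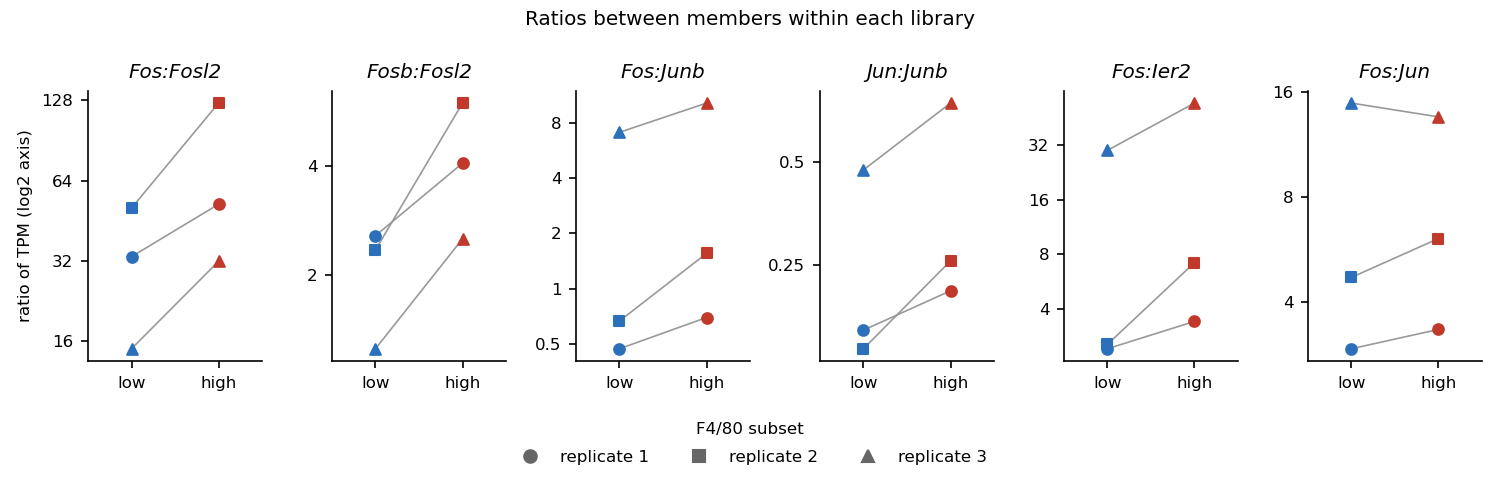
Ratio of the TPM of 2 genes in the same library (log2 axis), for 6 of the 9 ratios computed, in F4/80low (blue) and F4/80high (red) TAMs, joined by replicate. All drawn ratios but *Fos* to *Jun* slope upward in 3 of 3 pairs, and replicate 3 stands apart in the ratios to *Junb* and *Ier2*, as with *Fos* to *Ier2* at 30 and 54.7.

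More of these genes were called between the batches than between the subsets. Between batch 2 and batch 1, in the same fit with the subset as a term, 6 of the 10 genes were called, against 37.9% of all genes. *Fosl2* and *Egr2* were higher in batch 2, and *Jun*, *Junb*, *Egr1* and *Ier2* were lower, where 17.8% of all genes were called higher and 20.1% lower. Batch 2 is replicate 3 alone, whose 2 libraries had the smallest totals, so batch, experiment and depth cannot be told apart.

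*Ier2* measured 737.6 ± 241.3 CPM in batch 1 (SD, n = 4) and 71.44 CPM on average in batch 2, a log2 fold change of -3.36 (SE 0.33, edgeR adjusted p = 7.23e-05). *Junb* measured 4073 ± 1375 and 405.5 CPM, a log2 fold change of -3.30 (SE 0.36, adjusted p = 0.000123). For both genes the highest library was more than 15-fold above the lowest, at 16.2-fold for *Ier2* and 15.1-fold for *Junb*. *Jun* was lower in batch 2 by -1.62 (SE 0.31, adjusted p = 0.00271) and *Egr1* by -1.38 (SE 0.33, adjusted p = 0.00861). *Fosl2* went the other way, from 290.5 ± 111.1 to 856.1 CPM, a log2 fold change of 1.54 (SE 0.30, adjusted p = 0.00314). *Egr2* went from 43.53 ± 6.407 to 92.03 CPM, with 1.07 (SE 0.25, adjusted p = 0.00677). *Jund* at -0.98 (adjusted p = 0.0407) stayed within the fold limit. *Fosb* at 0.61 (adjusted p = 0.0919), *Atf3* at -0.56 (adjusted p = 0.178) and *Fos* at 0.20 (adjusted p = 0.487) did not pass, and *Fos* spanned only 1.42-fold from its lowest to its highest library. Without F4/80low replicate 3, 3 of the 10 genes were called: *Junb* and *Ier2* lower and *Egr2* higher. *Egr2* lost its call without F4/80high replicate 1 (0.97) or 3 (0.86).

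The scale matters for these values, because the median of all genes was itself -0.35 between the batches, and -1.37 with library size alone. Relative to that median, *Ier2* stood at -3.003 and *Junb* at -2.95, *Jun* at -1.27, *Egr1* at -1.02, *Jund* at -0.62 and *Atf3* at -0.20. *Fosl2* stood at 1.90, *Egr2* at 1.43, *Fosb* at 0.96 and *Fos* at 0.55. The value not set against the median turned sign with library size alone for *Fos* (-0.82) and *Fosb* (-0.42), and 6 genes were then called, all lower in batch 2.

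The batch difference also moved with base composition over all genes. In 10 classes of genes by GC content, counting those at a mean log2 CPM of 4 or more, the median batch log2 fold change went from 0.62 in the class with the lowest GC content (31% to 41.4%) to -0.72 in that with the highest (58% to 76.3%). The longest transcripts of *Jund* (67.1%), *Junb* (62.6%) and *Ier2* (60.9%) fall in that highest class. *Jund* was near the middle of its class, with 41.5% of the genes there at or below it. *Junb* and *Ier2* were near the lower end, with 1.16% and 0.969% at or below. *Fosl2* at 53.1% GC stood above most of its class (88.1% at or below), and *Jun* at 55.5% GC had 16.8% at or below. With the trend of GC content and length removed, chosen after the data were seen, *Junb* (-2.09) and *Ier2* (-2.03) were still called lower, and *Fosl2* (1.10), *Egr2* (1.58), *Fos* (1.05) and *Fosb* (1.28) were called higher. *Jun* (-0.78) and *Egr1* (-0.91) were then not called, *Jund* moved from -0.98 to -0.11 (edgeR adjusted p = 0.8), and *Atf3* turned to 0.36. The 71 genes with 1 exon had a median batch difference of 0.01, near the -0.03 of the 6947 genes with more. The part of GC content in the members' batch differences was not tested beyond this.

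**Figure D4:**
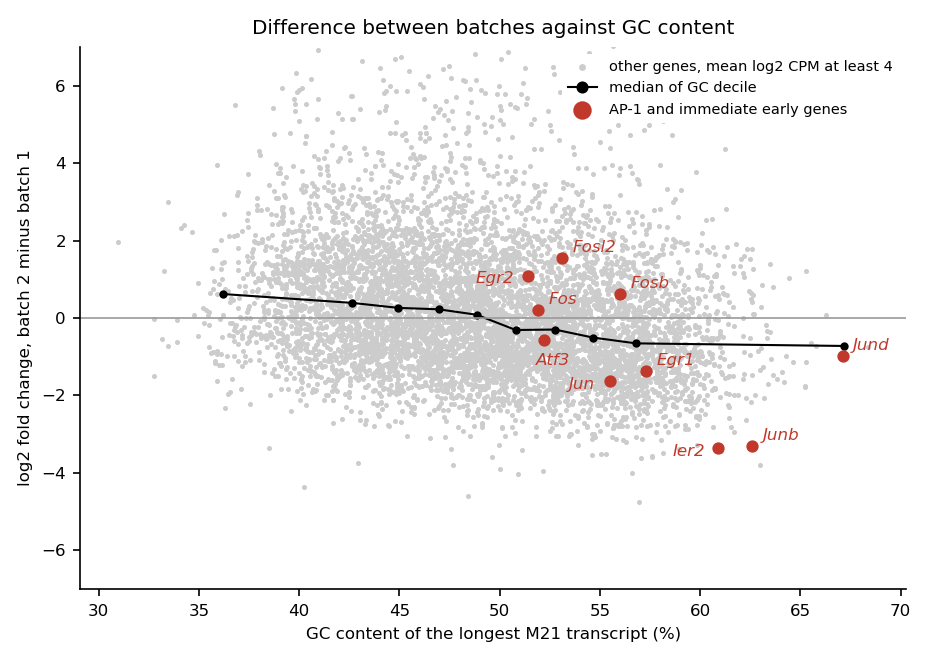
Log2 fold change of batch 2 minus batch 1 against the GC content of the longest transcript, for the AP-1 and immediate early genes (red) and other genes at a mean log2 CPM of 4 or more (grey), with the median of each of the 10 classes by GC content (black). *Ier2* and *Junb* lie near -3.36 and -3.30, far under the line, and *Fosl2* at 1.54 lies above it, and 10 genes beyond 7 in either direction are not drawn.

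The mean profile of the 10 genes over the libraries, as log2 CPM after each gene's own mean was subtracted, was 0.37, -0.14 and -0.50 for the F4/80high libraries of replicates 1, 2 and 3 and 0.59, 0.18 and -0.50 for their partners. The profile differed more by replicate number than by subset. It averages genes called lower in batch 2 (*Jun*, *Junb*, *Egr1* and *Ier2*) with genes called higher (*Fosl2* and *Egr2*), so it need not describe any single member. The 5 other genes with the smallest root mean square difference from it over the 6 libraries, of 7016 compared, were *Gtf3c1* (0.071), *Supt20* (0.075), *Impa2* (0.077), *Rab33b* (0.091) and *Dcaf8* (0.098, all on the log2 scale).

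The wider immediate early response was read from lists of related genes. No gene of the 117 on these lists was called between the subsets by edgeR, and 16 had an unadjusted p below 0.05. Over all genes tested, 4.3% were lower and 3.26% higher in F4/80high at that limit. DESeq2 called 2 of the 117, where it called 1.02% of all genes, and the replicate block 2, where it called 0.514%. The fitted medians of 5 of the 6 lists lay below 0, though in pair 3 those of AP-1 target genes (0.13) and of other AP-1 and bZIP factors (0.16) lay above 0, and in pair 2 that of heat shock genes (-0.16) lay below, beside a median of 0.01 over all 14776 genes, of which 7500 were higher in F4/80high and 7276 lower.

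Of 14 other AP-1 and related bZIP factors, 6 had a higher and 8 a lower fitted level in F4/80high TAMs, with a median log2 fold change of -0.03. *Fosl1*, which encodes the Fos protein FRA-1, averaged 17.53 ± 6.858 CPM over the F4/80high and 39.29 ± 15.18 CPM over the F4/80low libraries (SD, n = 3 for both), the F4/80high library being the lower in 3 of 3 pairs (log2 fold change -1.15, SE 0.25, edgeR adjusted p = 0.456, DESeq2 adjusted p = 0.00674). *Maf*, which encodes a bZIP factor of differentiated macrophages, went the other way in 3 of 3 pairs, with 1.33 (SE 0.37, edgeR adjusted p = 0.509, with the block 0.031). Of the Fos family genes, *Fosl1* and *Fosl2* were thus lower in every F4/80high library than in its partner, while *Fos* and *Fosb* were higher. *Mafk* was at -0.61, with an edgeR adjusted p = 0.716.

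Of 15 other immediate early transcription factors, 4 were higher and 11 lower, with a median of -0.28. In 3 of 3 pairs 6 were lower and 2 higher, where 15.7% of all genes were lower and 16% higher. *Nfil3* was at -0.75 (SE 0.26, edgeR adjusted p = 0.546), *Nr4a1*, an orphan nuclear receptor, at -0.62 (SE 0.35, adjusted p = 0.701) and *Ier5*, of the same family as *Ier2*, at -0.54 (SE 0.34, adjusted p = 0.721). *Myc* was at 0.47 (SE 0.22, adjusted p = 0.683), with all 3 F4/80high libraries above all 3 F4/80low libraries, as for 2.27% of all genes. Of 35 feedback and effector genes, which limit or carry out the response, 12 were higher and 23 lower, with a median of -0.27. In 3 of 3 pairs 16 were lower and 3 higher, beside the same shares of all genes. The anti-proliferative gene *Btg2* was at -0.84 (SE 0.23, edgeR adjusted p = 0.5, DESeq2 adjusted p = 0.0333 within the fold limit), the stress gene *Gadd45a* at -1.04 (SE 0.37, adjusted p = 0.568) and the kinase gene *Pim1* at -0.77 (SE 0.33, adjusted p = 0.651). *Dusp1*, the phosphatase that switches off p38 and JNK, named after its values were seen, was at -0.48 (SE 0.21, adjusted p = 0.654) and lower in 3 of 3 pairs. *Rhob* (0.53), *Zfp36l1* (0.51) and *Dusp6* (0.40), which encodes a phosphatase for ERK, were higher in 3 of 3 pairs, with adjusted p = 0.65, 0.68 and 0.716 in edgeR. The F4/80high libraries of *Zfp36l1* were also all above those of F4/80low.

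Of 24 genes for MAP kinases, serum response factor, CREB and their partners, 6 were higher and 18 lower, with a median of -0.17, and 0 had an unadjusted p below 0.05. The lowest was *Map2k3* at -0.50 and the farthest above 0 was *Mkl2* at 0.46. Of 16 genes known as AP-1 targets, 7 were higher and 9 lower, with a median of -0.35, and they split widely. The collagenase gene *Mmp13* was at 1.38 (SE 0.41, edgeR adjusted p = 0.509), the elastase gene *Mmp12* at 1.596 (SE 0.65, adjusted p = 0.638, and 0.48 without F4/80high replicate 2) and the urokinase gene *Plau* at 0.94 (SE 0.36, adjusted p = 0.61), while the gelatinase gene *Mmp9* was at -1.51 (SE 0.35, adjusted p = 0.456, with the block 0.0316). *Mmp9* is also abundant in neutrophils, whose summed markers were lower in F4/80high TAMs in every pair. *Vegfa* at -0.65 and *Cd44* at -0.68 were lower in 3 of 3 pairs, and the ranges of *Vegfa* did not overlap, as for 2.88% of all genes with F4/80high below. Of 13 heat shock genes, which are also induced by handling of tissue, 9 were higher and 4 lower, with a median of 0.26, and 0 had an unadjusted p below 0.05. *Hsph1*, with the smallest p among them, was at 0.47 (SE 0.31, edgeR adjusted p = 0.736).

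**Figure D5:**
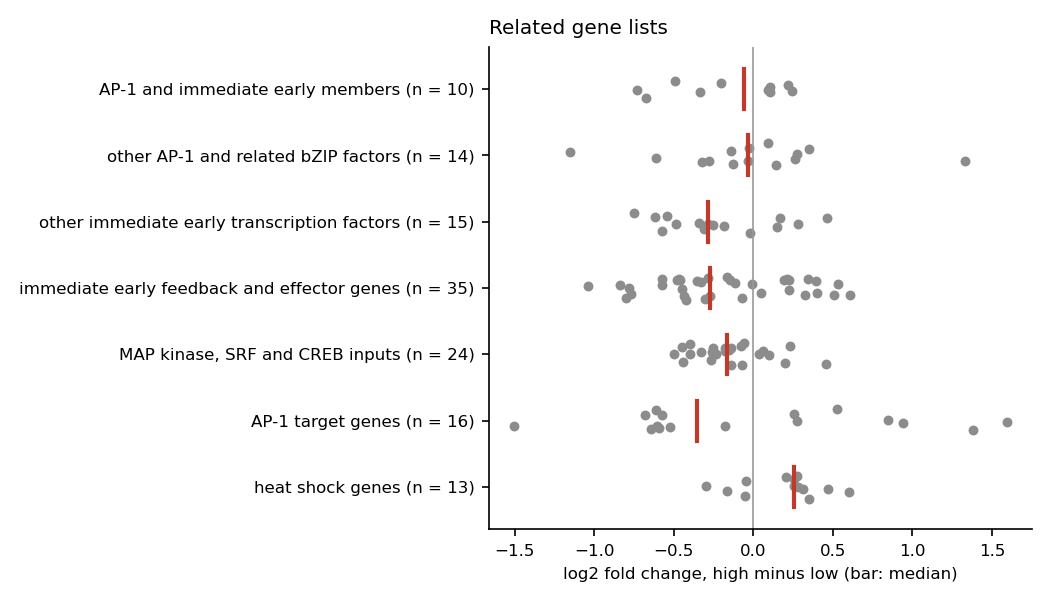
Log2 fold change of each gene, F4/80high minus F4/80low, by list (grey points, 1 per gene) with the median of the list (red bar). The fitted medians run from -0.35 for AP-1 target genes to 0.26 for heat shock genes, both with the other sign in 1 of the 3 pairs, the points of each list lie on both sides of 0, and no gene was called by edgeR.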

How the data were processed

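Bulk RNA-seq of poly-A RNA was made in 6 libraries, 3 for each TAM subset. The authors deposited raw read counts per gene, 1 table for each library, with each gene's length and biotype and no normalization. The aligner, the counting tool and its use of strand, the genome build and the annotation are not given in the sources used here. IDs were matched to GENCODE M21 (99.3% of 23424) for positions, GC content (99.7% of genes tested) and exons.

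Genes that the tables class as protein-coding (15989) were kept if they had 10 or more counts in all libraries together (14776). CPM were scaled to TMM-normalized library sizes, log2 CPM used a prior count of 2, and TPM used the deposited lengths over the kept genes. The main test was the edgeR quasi-likelihood test (edgeR 4.0.16, limma 3.58.1, R 4.3.3) with terms for batch and subset and Benjamini-Hochberg adjustment over all genes tested. Each SE was derived as the absolute log2 fold change divided by the square root of the test's F statistic. DESeq2 1.42.0 and a replicate block were alternatives. The batch of each library was read from the key of the study's batch-corrected PCA. Depth limits precision little here, since a floor of 3 counts is 0.0582 to 0.342 CPM and each of the 10 genes had at least 525 counts in every library. No library was a copy of another.

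Libraries with the same replicate number were treated as pairs. The study names 3 independent experiments on pooled tumors but does not tie replicate numbers to them. The pairing thus rests on the numbers in the labels. Once each subset's mean was subtracted, the libraries of a pair correlated at 0.745, 0.729 and 0.907 for replicates 1, 2 and 3, over 10089 genes. No correlation was computed between libraries of unlike number, and replicates 1 and 2 share a batch. These values therefore cannot show whether replicates 1 and 2 are rightly paired. Within batch 1 the counts of F4/80high replicate 1 were nearer to F4/80low replicate 2 than to replicate 1 (chi-square per degree of freedom 88.8 against 138). The scripts' steps were tested on simulated data. The members and lists were chosen with earlier results of these data known. Named genes are the 10 members, *Adgre1*, up to 3 genes of each related list with the smallest p in each direction, the 5 genes with the profile nearest to the members' mean among genes at a mean log2 CPM of 4 or more, and markers at 0 counts throughout. Markers that made up much of a list's sum, or little of it, are named beside that sum.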

Additional observations from a re-analysis of the deposited data

How the results depend on the processing

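Of the 10 genes, 0 were called between the subsets under each of 21 alternatives, with edgeR and DESeq2 adjusted p from 0.0148 to 1, and 7 of them had the same sign in all alternatives, though not the same size. Leaving out 1 library gave *Fos* 0.138 to 0.317, *Fosb* 0.047 to 0.408, *Fosl2* -1.076 to -0.536, *Junb* -0.748 to -0.272, *Jund* -0.537 to -0.005, *Egr1* -0.688 to -0.11, *Ier2* -0.933 to -0.492, *Jun* -0.043 to 0.327, *Egr2* -0.046 to 0.251 and *Atf3* -0.092 to 0.438. *Jun* turned to -0.043 without F4/80high replicate 1, -0.011 without F4/80low replicate 2, -0.041 without F4/80high or F4/80low replicate 3, -0.039 without replicate 3 of both and -0.043 with the block and without replicate 3. *Egr2* turned to -0.002 without F4/80high replicate 2, -0.046 without F4/80high or F4/80low replicate 3, -0.045 without replicate 3 of both, and -0.063 and -0.04 with the block and without replicate 2 or 3. *Atf3* turned to -0.092 without F4/80low replicate 2. Without 1 library of replicate 3, the batch term fits the other exactly, so such a fit compares the subsets in batch 1 alone. The reversals without replicate 3 are thus largely the same comparison. The alternatives share libraries and are not separate checks, and that without the fold limit used the main fit itself. In fits between the batches, a lone batch 2 library is assumed to vary like the others.

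Pairing by the replicate block changed no call among the 10 genes. Over all genes the block called 76 (34 higher, 42 lower) in place of 0, 59 with the trend of GC content and length removed as well, and 380, 107 and 23 without replicate 1, 2 and 3. DESeq2 called 150 (46 higher, 104 lower) and 357 with the block. Leaving out single libraries from the edgeR fit gave 0 to 55 calls, the 55 without F4/80high replicate 1. On the related lists DESeq2 called 2, the block 2, DESeq2 with the block 6, the block with the GC and length trend removed 2, and the block without 1 replicate 0 to 6. The cause of these differences was not tested. For the difference between batches, leaving out 1 library gave 3 to 7 called members, the 3 without F4/80low replicate 3. *Fos* turned to -0.819 and *Fosb* to -0.416 with library size alone, and *Atf3* to 0.359 with the GC and length trend removed. The mean log2 ratios without 1 pair were 0.871 to 1.19 for *Fos* to *Fosl2*, 0.542 to 0.893 for *Fos* to *Junb* and 0.683 to 1.18 for *Fos* to *Ier2*. Their sign could not change, since each pair had the same direction. The alternatives with GC content and length, those with the block and without 1 replicate, and the ratios without 1 pair were chosen after seeing the data.

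With 3 libraries a subset, the SE of the log2 fold change of the 10 genes was 0.21 to 0.30 in the main fit, and 0.147 to 0.25 with the replicate block. Batch 2 is replicate 3 alone, at lower depth. All libraries passed through digestion and sorting, and no library without them was used here.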
